A study of Homo sapiens with 3 samples.

Results

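The mitochondrial ribosomal proteins of PLC-PRF-5 cells were taken as every probe whose symbol in the platform annotation began with MRPL (large subunit) or MRPS (small subunit). Of 115 such probes, 3 belonged to pseudogenes and 2 to antisense RNAs that code no protein, and these were set apart. The other 110 probes measured 76 genes of the 20046 genes with a probe, 48 of the large subunit (73 probes) and 28 of the small subunit (37 probes). This established line comes from a human hepatoma. Cells were treated for 24 h with the solvent DMSO, with sorafenib, a multi-kinase inhibitor used in hepatocellular carcinoma, or with the sorafenib probe, the same drug with a terminal alkyne and a photoaffinity group added, at a position that its makers took not to be needed for binding. The labels give 10 μM for both compounds and the protocol field gives 50 μM, so the dose is uncertain but was the same for both. Total RNA of each group was hybridised to 1 Illumina beadchip, and the profiles were used to ask whether the drug and its probe act alike on gene expression.

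Mitochondria keep a ribosome of their own, which descends from that of bacteria and translates only the few messages of mitochondrial DNA, all of them for membrane subunits of the respiratory chain and ATP synthase. Its ribosomal RNAs come from mitochondrial DNA, but all its proteins are encoded in the nucleus, made in the cytosol and imported. The large subunit holds the site that forms peptide bonds and the exit tunnel, whereas the small subunit holds the decoding site and the entry for the message. Many of the proteins have a counterpart in bacteria, and the rest were added in the mitochondrial lineage.

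A single array per group gives no replicate error, no test and no interval for any difference, and whether a difference exceeds the spread between cultures cannot be said. Both compounds were also set against the same DMSO array, so an error of that array enters both comparisons. The mean intensity per array was 159 to 183, and 32.3% to 32.8% of the 47323 probes were above background, which means a detection p-value under 0.01 against the negative controls of the array. After background correction and quantile normalization, 10396 genes had a probe above background on at least 1 array, and each gene was represented by its brightest such probe. Of 17 listed hepatocyte markers with a probe, 11 were not above background on any array and the albumin gene ALB lay near the floor of the arrays (intensity 48.1, 38.7 and 49.6 with DMSO, sorafenib and the probe), whereas the keratin gene KRT8 (3019, 2814 and 2814) was bright. FOXA2 (2004, 1772 and 1686) was bright too, and KRT18 read 373, 437 and 364. Of 2 dim markers, FGA (34.9, 47.1 and 50.6) was higher with both compounds, and APOH was above background with DMSO only (52.0, 27.1 and 30.1). Of 13 markers of blood, endothelial and stromal cells, 9 were not above background. CD68 (609, 543 and 509), CD14 (117, 198 and 173) and ACTA2 (275, 178 and 191) were above background on all arrays in this single line. COL1A1 (24.9, 24.0 and 36.5) was above background with the sorafenib probe only. The part of these markers in the values of the members was not tested. In bulk RNA, a change in the make-up of the culture and a change of RNA per cell cannot be told apart.

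Nearly all members were expressed. All 76 genes had a probe above background on at least 1 array and 75 on all 3. The single exception was MRPS14, a small subunit protein with a bacterial counterpart, which was above background with DMSO only. This depends on the limit: at a detection limit of 0.05 all 76 were above background on all 3 arrays. Of the 110 probes, 101 were above background on all arrays, 5 on 1 or 2 arrays and 4 on none. The intensities of the members ran from 40.3 to 5412 with DMSO (median 601), from 30.2 to 5952 with sorafenib (median 619) and from 29.9 to 5721 with the probe (median 638), against medians of 138, 137 and 138 over all genes kept. The large subunit had medians of 569, 615 and 638, and the small subunit 615, 623 and 633. Of the members, 61 lay among the 3466 brightest genes, 14 in the middle group of 3465 and 1 in the dimmest. Brightness depends on the probe as well as on the message, so these ranges describe signal and give no order of abundance.

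With sorafenib, most genes of the mitochondrial ribosome read close to their DMSO level. The median log2 difference over the 76 members was 0.04 (large subunit 0.04, small subunit 0.05), beside -0.0026 over all genes kept. Of the members, 46 were above 0 (60.5%) and 29 below, whereas 49.4% of all genes were above 0. At a fold of 1.5, which was the size counted, 1 member was higher, MRPL4, and none was lower, and over all genes kept 2.15% were higher and 1.94% lower by as much. Among the 3466 brightest genes, to which most members belong, the shares were 1.18% and 0.606%. The root mean square difference was 0.190 for the 61 bright members against 0.238 for all 3466 bright genes, and 0.358 for the 14 members of the middle group against 0.293 for that group. At a smaller size, 25% higher or 20% lower, 8 members were higher (10.5% of them, with 10.7% of all genes) and 1 was lower (1.32%, with 11.1% of all genes). Among the 3466 brightest genes, 8.05% were higher and 6.92% lower by that size.

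The sorafenib probe gave values of the same order. The median was 0.07 over all members, 0.07 in the large and 0.04 in the small subunit, beside -0.00032 over all genes kept. Again 46 members were above 0 (60.5%) and 29 below, with 49.9% of all genes above 0. At 1.5-fold 2 members were higher, MRPL4 and MRPL28, and none was lower, where 2.31% of all genes were higher and 1.98% lower. At the smaller size 6 members were higher by 25% (7.89%, with 10.7% of all genes) and 1 was lower by 20% (1.32%, with 10.7% of all genes). Among the 3466 brightest genes, 7.18% were higher and 6.41% lower by that size. The root mean square difference was 0.171 for the 61 bright members (0.235 for all bright genes) and 0.377 for the 14 of the middle group (0.297 for that group).

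**Figure D1:**
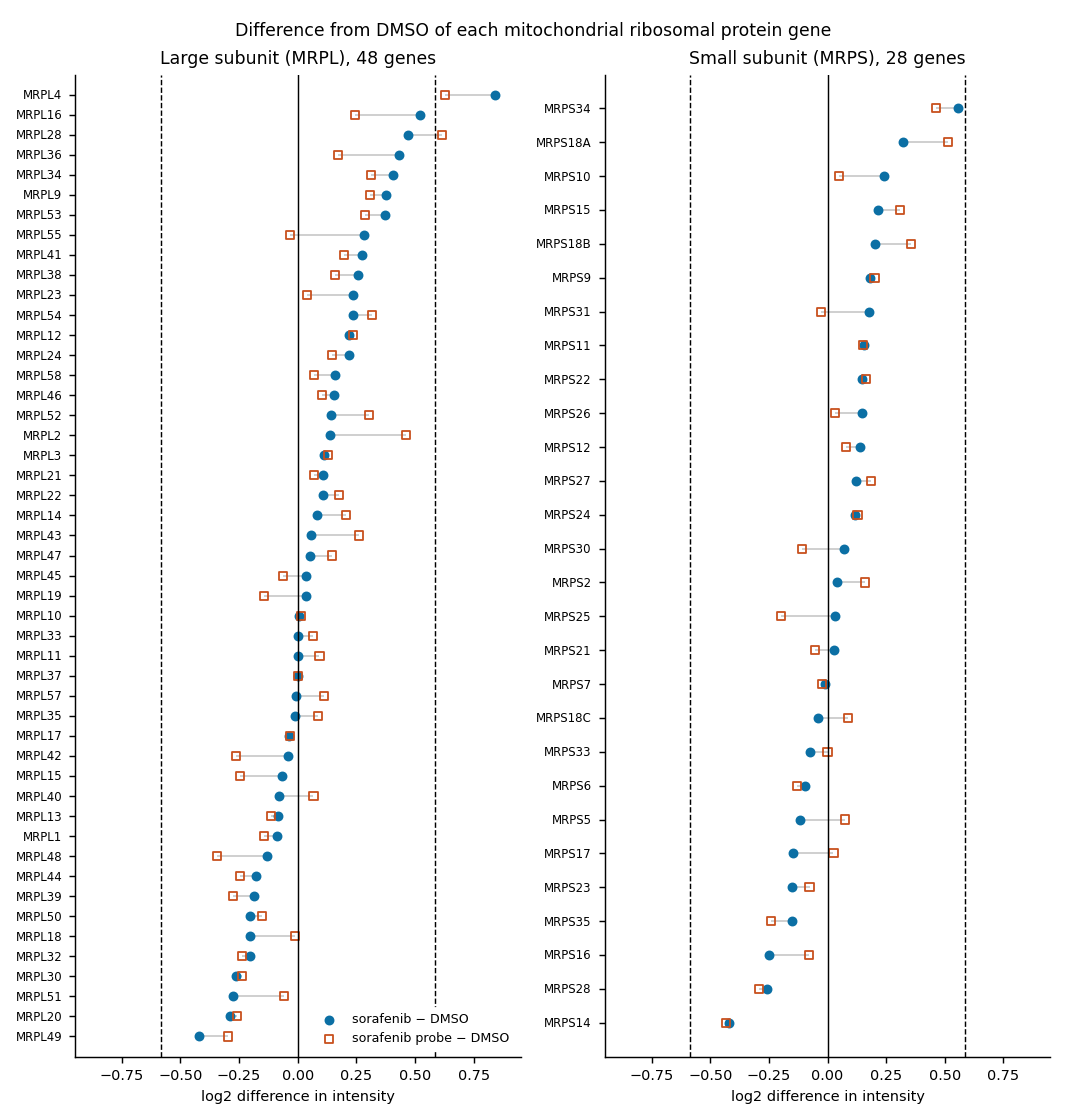
Log2 difference in intensity from DMSO (horizontal axis) of each mitochondrial ribosomal protein gene, with sorafenib (filled circles) and the sorafenib probe (open squares), large subunit on the left and small subunit on the right, and dashed lines at 1.5-fold. MRPL4 passed the line with both compounds and MRPL28 with the probe, no gene passed it on the lower side, and MRPS14 was below background with both compounds, so its points are no measured differences.

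The drug and its probe differed little from each other over the ribosome. The median difference of the probe from sorafenib was -0.00058, with 38 members above 0 and 38 below (50% above, with 49.7% of all genes), and the root mean square was 0.128 for the bright members (0.136 for all bright genes) and 0.163 for those of the middle group (0.200 for that group). No member reached 1.5-fold in either direction, and 0.712% of all genes were higher and 0.529% lower by that size. MRPL2, a large subunit protein that in bacteria lies near the peptide-bond site, was the highest, at 0.32, with intensities of 104, 114 and 143 on the DMSO, sorafenib and probe arrays. It was the single member higher by 25% with the probe, as were 5.12% of all genes kept, and none was lower by 20%, as were 4.91%. Among the brightest genes these shares were 1.01% and 1.07%. MRPL55, a small protein of the large subunit, was the lowest at -0.32 (intensities 253, 307 and 247), but its second probe gave -0.09, and a further dim probe was above background with DMSO only. The plot of cumulative shares shows the same: in their lower and middle parts the members lay to the right of all genes for each compound against DMSO, and they followed the curve of the bright genes between the compounds.

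**Figure D2:**
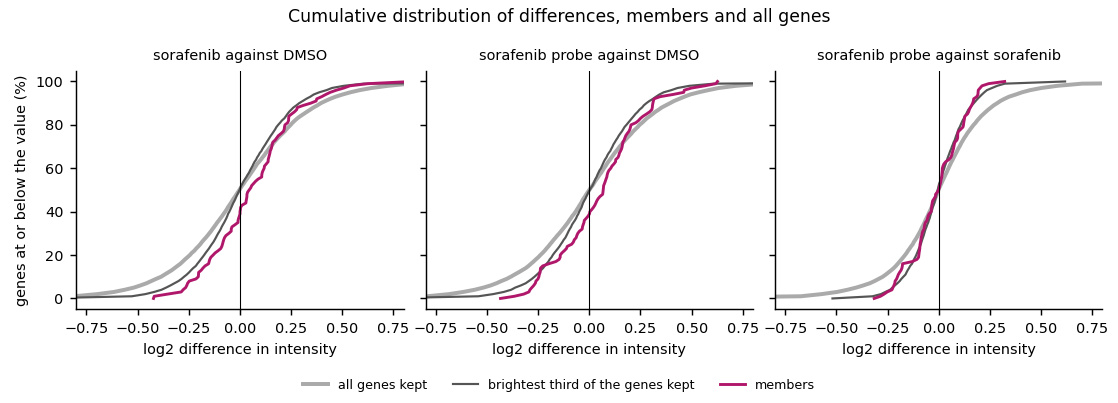
Share of genes (vertical axis, %) at or below each log2 difference (horizontal axis, drawn from -0.8 to 0.8) for the members, all genes kept and the brightest genes kept, in the 3 comparisons. The members' median was 0.04 with sorafenib, 0.07 with the probe and -0.00058 between the compounds, and MRPL4 at 0.84 lies outside the range drawn for sorafenib.

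Of the large subunit, MRPL4 gave the highest values. The gene codes for a protein with a bacterial counterpart that lies near the exit tunnel. Its brightest probe read 73.8 on the DMSO array, 132 on the sorafenib array and 114 on that of the sorafenib probe, a log2 difference of 0.84 and 0.63. Its second kept probe gave 0.18 and -0.15, and a further probe was not above background on any array, so the call past 1.5-fold rests on 1 dim probe. MRPL28, also the counterpart of a bacterial protein, had 1 probe, which read 91.6, 127 and 140 (log2 difference 0.47 and 0.62). Both genes lie in the dim part of the members, and with a larger offset of 50 in the background correction the value of MRPL28 with the probe was 0.47 and that of MRPL4 was 0.46.

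Next in the large subunit by their values with sorafenib were MRPL16 and MRPL36. MRPL16, whose bacterial counterpart helps to form the site that binds transfer RNA, read 323, 464 and 383 (0.52 and 0.25). MRPL36, a very small protein with a bacterial counterpart, read 1077, 1451 and 1213 (0.43 and 0.17). MRPL34 (345, 457 and 428), MRPL9 (152, 198 and 189) and MRPL53 (281, 364 and 343), named after their values were seen, were also higher by 25% with sorafenib. MRPL12, the stalk protein that also binds the mitochondrial RNA polymerase, read 599, 697 and 705 (0.22 and 0.24).

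At the lower end of the large subunit, MRPL49 read 223, 166 and 181 (-0.42 and -0.30). It is a mitochondrion-specific protein, and it was the single member lower by 20% with sorafenib. MRPL20 read 784, 641 and 654 (-0.29 and -0.26), but its second probe gave 0.06 and 0.09. MRPL30 read 162, 136 and 138 (-0.26 and -0.24). A second, dim probe of MRPL30 read 36.9, 31.0 and 39.4, below background with sorafenib, and gave 0.09 with the sorafenib probe. MRPL51 read 1884, 1553 and 1807 (-0.28 and -0.06). With the sorafenib probe, MRPL48 (134, 122 and 105) was lowest at -0.34 and the single member lower by 20%, MRPL39 (554, 487 and 457) was at -0.28 and MRPL42 (308, 299 and 256) at -0.26. These last 3 are mitochondrion-specific, were named for their values with the sorafenib probe, and were at -0.13, -0.19 and -0.04 with sorafenib.

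Among the 5 brightest large subunit genes were MRPL51, given above with -0.28 and -0.06, and 4 others. MRPL33 read 2662, 2667 and 2786 (0.00 and 0.07), and MRPL17, a protein of the outer side of the exit tunnel in bacteria, read 1675, 1631 and 1637 (-0.04 and -0.03). MRPL3 read 1700, 1836 and 1859 (0.11 and 0.13), with a dim second probe at 0.00 and -0.31. MRPL24 read 1425, 1656 and 1575 (0.22 and 0.15), with a second probe at -0.21 and 0.09. Of the 5, MRPL33 and MRPL17 lay nearest to DMSO and MRPL51 and MRPL24 farthest from it with sorafenib.

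In the small subunit no gene passed 1.5-fold. MRPS34, a mitochondrion-specific protein needed for a stable small subunit, came closest with sorafenib, reading 111, 163 and 153 (0.55 and 0.46). It lay just below the size at which MRPL4 was counted. Among those above background throughout, MRPS28 was the lowest, with 530, 443 and 434 (-0.26 and -0.29). MRPS14 read 40.3 with DMSO and 30.2 and 29.9 with the compounds, where it was below background. Against the lowest signal above background on those arrays it was at least 1.18-fold and at least 1.19-fold higher with DMSO.

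MRPS12, which sits at the decoding site and whose bacterial counterpart is mutated in streptomycin resistance, was the brightest member and read 5412, 5952 and 5721 (0.14 and 0.08), with a second probe at 0.28 and 0.42. Its other kept probes were dim and went opposite ways with both compounds, 1 reading 91.6, 89.2 and 73.1 and the other 37.1, 53.8 and 64.2. MRPS24 (1640, 1780 and 1792) was at 0.12 and 0.13. MRPS6 (1384, 1295 and 1264) was at -0.10 and -0.13. MRPS21 (1229, 1254 and 1185) was at 0.03 and -0.05, with a second probe at 0.10 and 0.21. None of these 4 was 25% higher or 20% lower than with DMSO on its brightest probe.

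The MRPS18 genes are 3 relatives of 1 bacterial protein. MRPS18C takes its place in the small subunit and is counted as its counterpart, whereas MRPS18B sits elsewhere in the small and MRPS18A in the large subunit, and both are counted as mitochondrion-specific. MRPS18A read 150, 187 and 214 (0.32 and 0.51), and with the sorafenib probe it was the member next below the 1.5-fold line. MRPS18B read 812, 933 and 1039 (0.20 and 0.36; second probe 0.14 and 0.20). MRPS18C read 1165, 1131 and 1236 (-0.04 and 0.09). The probe array exceeded the sorafenib array in all 3, by 0.19, 0.16 and 0.13, with 0.06 on the second probe of MRPS18B. In that comparison 50% of the members and 49.7% of all genes were above 0. MRPS30, the other protein named for the small subunit that structures place in the large one, read 610, 640 and 566 (0.07 and -0.11). With both placed by position, the large subunit had 50 genes and medians of 0.05 and 0.07, and the small subunit 26 genes and medians of 0.03 and 0.04.

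**Figure D3:**
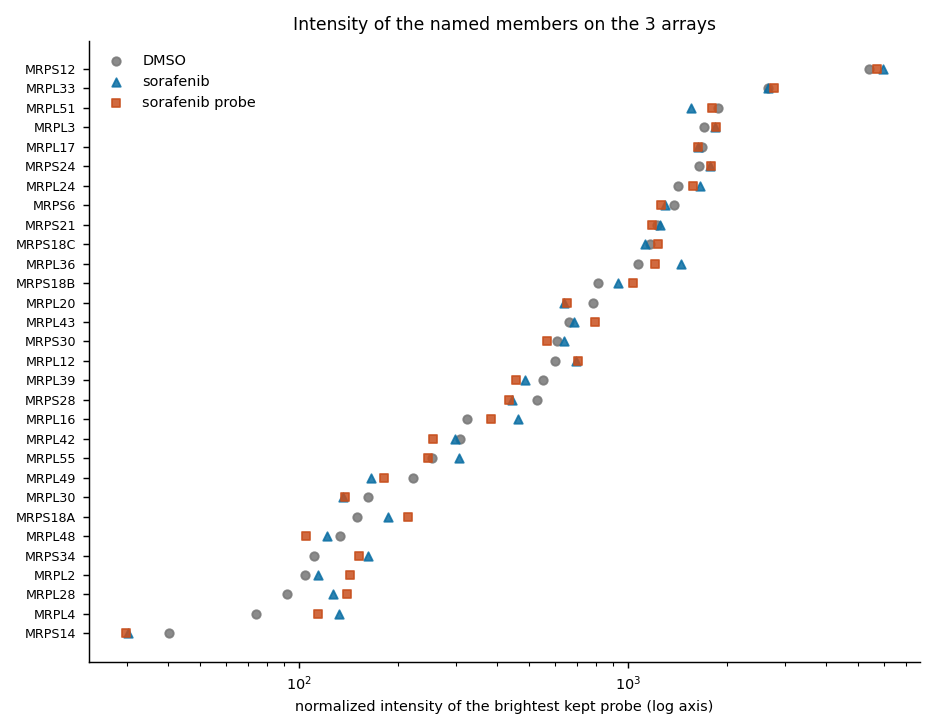
Normalized intensity of the brightest kept probe (horizontal log axis) of the members named by the rule, on the DMSO, sorafenib and sorafenib probe arrays, 1 point per array. Many of these genes were chosen for their differences, and the 3 points lie close together for MRPL33 (2662, 2667 and 2786) and apart for MRPL4 (73.8, 132 and 114) and for the bright MRPL36 (1077, 1451 and 1213).

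The classes of descent had medians close to each other. The 45 members with a bacterial counterpart had medians of 0.04 and 0.08 with sorafenib and the probe, and the 31 mitochondrion-specific members 0.06 and 0.03. By position, the 29 large subunit proteins with a bacterial counterpart were at 0.08 and 0.09 and the 21 others at 0.03 and 0.07. The 16 small subunit proteins with a counterpart were at 0.01 and 0.06 and the 10 others at 0.13 and 0.02. The highest of these medians was 0.13. MRPL4 and MRPL28, the 2 genes past 1.5-fold, were both among the 29 large subunit proteins with a bacterial counterpart, the largest class by position. With so few genes no trait of that class can be read from this, and the call of MRPL4 rests on a single dim probe.

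For 24 members a second probe was kept, which shows how far the probes of a gene differ on the same arrays. The second probe was always the dimmer. Some pairs, as for MRPL4, are annotated to different transcripts, so the gap is not probe error alone. Between the first and the second probe of a gene, the median absolute gap in log2 difference was 0.117 for sorafenib and 0.228 for the sorafenib probe, and the largest gaps were 0.66 and 0.77, for MRPL4 in both. The median gap for all 2514 genes with a second probe was 0.218 and 0.204. The sign was the same on both probes for 15 and 14 of the 24 members (62.5% and 58.3%), and for 61.1% and 61.3% of all genes. Across the 24 genes, which share arrays and are not replicates, Pearson's r between the probes was 0.35 and 0.10 (0.32 and 0.36 over all genes).

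Some genes had the same sign on their first and second probe with both compounds. MRPS11 was at 0.16 and 0.15 on the first and at 0.40 and 0.38 on the second probe, and MRPL43 at 0.06 and 0.26 on the first and 0.37 and 0.30 on the second. A further, dim probe of MRPL43, above background with DMSO and sorafenib only, read 38.9, 34.7 and 29.5, lower with both compounds. MRPL42 was at -0.04 and -0.26, with -0.45 and -0.53 on the second probe. For MRPL10 the second probe was above background with the sorafenib probe only and gave 0.65 there, against 0.02 on the first probe (259, 260 and 262). MRPS11, MRPL42 and MRPL10 are labelled in the plot of first against second probes, and MRPS11 and MRPL10 were named after their values were seen.

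**Figure D4:**
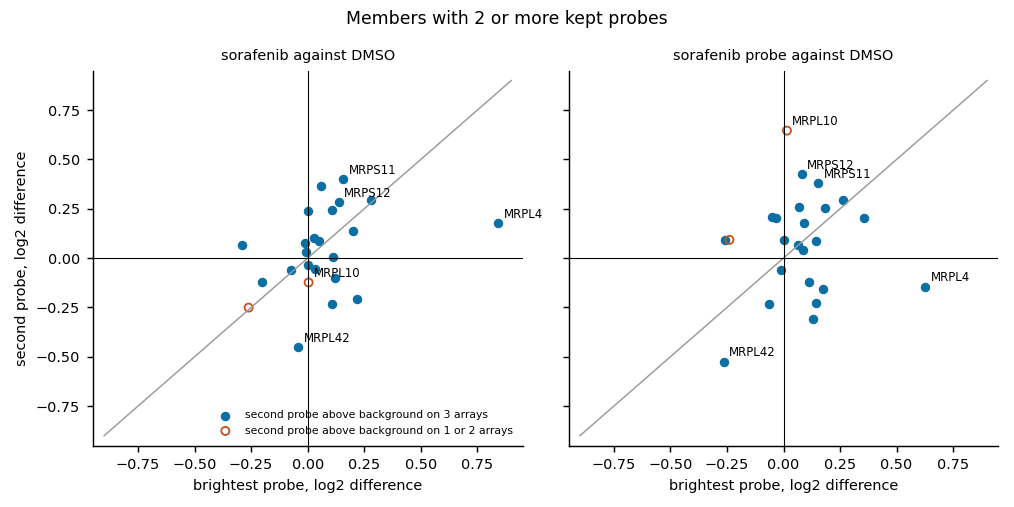
Log2 difference from DMSO on the second brightest kept probe (vertical axis) against that on the brightest (horizontal axis) for the 24 members with more than 1 kept probe, with the line of equal values, for sorafenib (left) and the sorafenib probe (right). The points scatter widely around the line, with a median absolute gap of 0.117 and 0.228, and MRPL4 lies farthest from it.

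The genes that work with the mitochondrial ribosome were read in the same way. Of 5 listed ribosomal proteins without an MRPL or MRPS symbol, 4 had a probe, 3 were kept and 1 was above background on no array. DAP3, the GTP-binding protein of the small subunit that carries no MRPS symbol, was at 0.02 and 0.11 (intensity 704, 715 and 757). CHCHD1 of the small subunit was at 0.31 and 0.34 (132, 164 and 168), and GADD45GIP1 of the large subunit at 0.22 and 0.0012 (46.1, 53.7 and 46.2). Of 12 mitochondrial translation factors with a probe, 11 were kept, with medians of 0.05 and 0.06 and none past 1.5-fold. The members of the list farthest from DMSO were the initiation factors MTIF2 (0.35 and 0.29) and MTIF3 (0.31 and 0.32) and the rescue factor MTRFR (0.34 and 0.41). Of the 11, 6 were above 0 and 5 below with each compound. On the lower side, and named after their values were seen, MTFMT, which formylates the initiator transfer RNA, was at -0.26 and -0.26 and the elongation factor GFM1 at -0.14 and -0.36.

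Of 26 genes for assembly of the ribosome and modification of its RNA, 22 were kept, with medians of 0.06 and 0.02. RBFA, which binds the maturing small subunit, was past 1.5-fold with both compounds, reading 96.8, 168 and 167 on the 3 arrays (0.80 and 0.78). DDX28, a helicase of large subunit assembly, was lower by 1.5-fold with sorafenib only, reading 243, 154 and 224 (-0.66 and -0.11). It differed between the compounds by 0.54, where the largest difference of a member was 0.32. YBEY, an endonuclease homolog bound to the small subunit, was at 0.54 and 0.36. No other gene of the list reached 1.5-fold. Each of RBFA and DDX28 was read by 1 kept probe.

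The 10 kept genes for copying and transcribing mitochondrial DNA had medians of -0.09 and 0.05, and 8 kept regulators of nuclear mitochondrial genes -0.12 and -0.14, with none past 1.5-fold in either list. GABPA, the DNA-binding subunit of nuclear respiratory factor 2, was above background with DMSO only (45.0, 28.0 and 31.7). The 33 kept subunits of complex I, the largest user of mitochondrial translation products in the respiratory chain, had medians of 0.14 and 0.08, with 2 subunits higher by 1.5-fold with each compound and none lower. Over all genes kept, 2.15% were higher by that size with sorafenib and 2.31% with the probe. The 2 subunits were NDUFV3 (35.6, 59.1 and 53.4, at 0.73 and 0.59) and NDUFA10 (232, 367 and 354, at 0.66 and 0.61). With DMSO, NDUFV3 lay just above 34.8, the lowest signal above background on that array. Each of these genes had 2 kept probes, and only the brightest is given here. The 68 kept proteins of the cytosolic ribosome had medians of 0.03 and 0.04, with none higher and 1 lower with sorafenib. No probe was listed for the genes encoded in mitochondrial DNA, so the products of mitochondrial transcription were not analysed here.

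**Figure D5:**
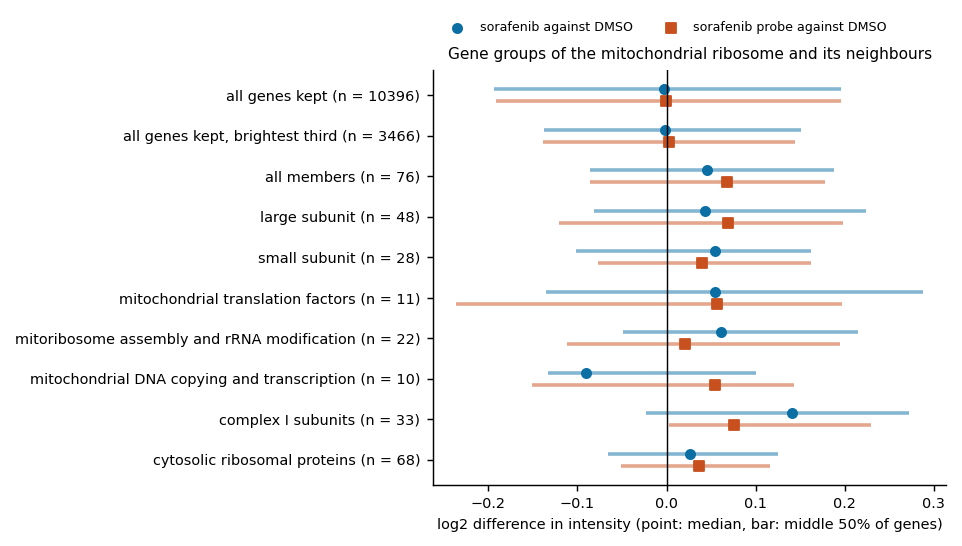
Median log2 difference in intensity from DMSO (points) and the middle 50% of genes (bars) for all genes kept, the members, the subunits and related gene lists, with sorafenib (circles) and the sorafenib probe (squares). The medians of the 2 subunits were 0.04 and 0.05 with sorafenib and 0.07 and 0.04 with the probe, and every bar drawn crossed 0 except that of complex I with the probe.

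Promoters of genes for mitochondrial proteins are known for sites of nuclear respiratory factor 1, of ETS factors such as GABPA and of YY1. RefSeq promoter windows of 300 bases (250 before and 50 after the start, build GRCh38.p14) were found for 68 of the 76 members. The letters CCGGAAG (ETS), on either strand, were in the windows of 28 members (41.2%), against 19.55% of 8411 genes kept on the arrays and 10.7% of all 27305 windows. AAGATGGCG (YY1) was in 13 (19.1%, against 4.16% and 1.85%), and GCATGCGC (nuclear respiratory factor 1) in 6 (8.82%, against 5.75% and 3.27%). An ETS and a YY1 motif can overlap in the letters AAG, and both were then counted. At least 1 motif was in 38 windows (55.9%, against 26.8% and 14.6%), and in 42.9% of the 63 windows of cytosolic ribosomal proteins. The large and the small subunit had alike shares for ETS (39% and 44.4%) and YY1 (19.5% and 18.5%). A match describes letters and is no proof of binding.

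The windows of some genes with large differences, chosen by hand, are given to show where the motif letters lie. Whether the letters bear on the differences was not tested. They run from 250 bases before to 30 after the start, on the strand of the gene. They lie at chr19:10251701-10251980 on the plus strand (MRPL4), chr16:370509-370788 minus (MRPL28), chr16:1773105-1773384 minus (MRPS34), chr6:43687762-43688041 minus (MRPS18A) and chr11:65121933-65122212 plus (MRPL49, the lowest with sorafenib). Capitals mark the ETS and YY1 letters on either strand.
MRPL4: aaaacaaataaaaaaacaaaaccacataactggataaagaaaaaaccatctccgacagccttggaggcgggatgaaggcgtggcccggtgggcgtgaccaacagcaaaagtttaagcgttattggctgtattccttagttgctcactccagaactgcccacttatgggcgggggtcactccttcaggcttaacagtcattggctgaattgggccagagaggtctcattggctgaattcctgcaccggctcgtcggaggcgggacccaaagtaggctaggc
MRPL28: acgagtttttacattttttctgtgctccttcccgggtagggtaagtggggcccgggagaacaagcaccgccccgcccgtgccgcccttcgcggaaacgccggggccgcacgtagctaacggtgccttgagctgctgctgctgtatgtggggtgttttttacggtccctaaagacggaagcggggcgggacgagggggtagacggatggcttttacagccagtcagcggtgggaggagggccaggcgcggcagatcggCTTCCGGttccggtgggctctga
MRPS34: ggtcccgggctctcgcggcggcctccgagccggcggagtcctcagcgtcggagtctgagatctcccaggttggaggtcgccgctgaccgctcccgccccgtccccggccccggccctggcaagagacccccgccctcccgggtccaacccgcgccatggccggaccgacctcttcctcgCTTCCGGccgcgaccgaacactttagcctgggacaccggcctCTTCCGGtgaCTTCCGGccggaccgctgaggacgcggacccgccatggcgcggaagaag
MRPS18A: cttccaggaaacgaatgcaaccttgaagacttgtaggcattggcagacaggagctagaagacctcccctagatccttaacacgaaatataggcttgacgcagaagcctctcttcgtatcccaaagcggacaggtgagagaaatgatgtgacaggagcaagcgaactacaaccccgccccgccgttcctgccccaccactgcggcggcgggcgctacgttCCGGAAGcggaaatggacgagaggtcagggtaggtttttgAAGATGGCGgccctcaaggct
MRPL49: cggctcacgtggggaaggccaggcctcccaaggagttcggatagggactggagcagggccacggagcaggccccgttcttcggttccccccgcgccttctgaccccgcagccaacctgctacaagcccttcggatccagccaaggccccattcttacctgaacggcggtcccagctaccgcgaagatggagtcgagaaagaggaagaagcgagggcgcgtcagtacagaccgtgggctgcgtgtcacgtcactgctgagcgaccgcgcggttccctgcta
MRPL4 and MRPL49, the highest and the lowest member with sorafenib, held none of the 3 motifs. MRPL28 held 1 ETS motif, which began 7 bases after the start, and MRPS34 held 3, which began 71, 29 and 19 bases before it. MRPS18A held an ETS motif 31 bases before and a YY1 motif 9 bases after the start. Of genes not shown, MRPL16 (0.52 with sorafenib) held 1 ETS motif and MRPL36 (0.43) held 1 YY1 motif. Over all members with a window, the median difference was 0.11 with a motif and 0.03 without for sorafenib, and 0.07 and 0.05 for the sorafenib probe.

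The 68 members with a window were spread over 20 chromosomes, with at most 8 on 1, and the others were not placed. Of these 68, 17 (25%) started within 1000 bases of a coding gene that runs the other way, against 13.8% of genes kept on the arrays and 10.45% of coding genes. In 1 such pair both genes were members, MRPL46 and MRPS11, whose starts lie 320 bases apart and whose brightest probes gave 0.15 and 0.16 with sorafenib and 0.10 and 0.15 with the probe. MRPS12 starts 181 bases from SARS2, the mitochondrial seryl-tRNA synthetase gene, and they were at 0.14 and 0.12 with sorafenib and 0.08 and 0.04 with the probe. MRPL49 starts 49 bases from FAU, which codes for a protein of the cytosolic ribosome, and was at -0.42 with sorafenib where FAU was at -0.0083. MRPL32 (-0.20 and -0.24) and its neighbour PSMA2 (-0.53 and -0.41), a proteasome gene, were both lower than with DMSO. These pairs are examples. In others the signs differed, as for MRPS27 (0.12 and 0.18) and PTCD2 (-0.04 and -0.19). Of 16 members whose neighbour was kept on the arrays, 12 had its sign with sorafenib and 12 with the probe, with MRPL46 and MRPS11 each counted. The like share for neighbouring genes outside the members was not computed.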

How the data were processed

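Each group was measured on 1 array. The authors deposited 2 tables of probe intensity and a detection p-value for each probe. The table used here holds intensities after background subtraction, not normalized between arrays (27.1% to 30.2% of the probes below 0). The other deposited table is quantile normalized with a floor of 1. The scanner software used was not given in the sources used here. Signal over background, in place of depth, limits dim probes. Intensities were corrected with limma 3.58.1 in R 4.3.3 (normexp on the detection p-values, offset 16), quantile normalized and put on the log2 scale, where the offset shrinks the differences of dim genes. Tables were made with scipy 1.17.1, pandas 2.3.3 and numpy 2.4.6 under Python 3.11.15.

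Probes under a detection p-value of 0.01 on at least 1 array were kept (17427), and the brightest stood for its gene. Of the probes, 30113 had 1 symbol, 8 several and 17202 were not listed. All 76 member symbols are current. A gene below background on 1 array of a pair was set there to the array's lowest value above background, or to its own where that was higher, and calls at 1.5-fold used this bound. No test was possible, since each group had 1 array. The steps were tested on simulated data.

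The members and lists were chosen with earlier results of these data known. The rule for named genes takes the 5 highest and 5 lowest members for each compound, the 3 highest and 3 lowest between them, the 5 brightest of each subunit, members past 1.5-fold or below background on an array, the MRPS18 genes, MRPL12, MRPS12, MRPS30 and MRPS36, and up to 3 genes of each other list. MRPL27 and MRPS36, for which no probe is listed here, were not analysed here, nor were protein sequences. Alternatives were an offset of 50, the authors' normalized table, median scaling, no normalization, a detection limit of 0.05, detection on all 3 arrays, no filter, the mean over a gene's kept probes, a fold of 2, and a smaller size of 25% higher or 20% lower.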

Additional observations from a re-analysis of the deposited data

How the results depend on the processing

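Of 187 values under the alternatives, 158 stayed within the range set for them and 29 moved. The range was a log2 difference of 0.1 for medians and single genes, and a factor of 1.5 for counts. The member medians were themselves smaller than 0.1, so a median that changed sign could still be counted as unmoved. A count that stayed at none was also counted as unmoved. The number unmoved is therefore no measure of how firm the medians are. Without normalization between arrays the median over all members was -0.15 with sorafenib and -0.11 with the sorafenib probe, where all genes kept were at -0.19 and -0.16. Relative to all genes the members were then 0.037 and 0.050 higher, against 0.047 and 0.068 as reported. With median scaling the members were at -0.0046 and 0.06 and all genes at -0.06 and -0.02, so the sign of the member median with sorafenib depends on the scaling.

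The number of members higher by 1.5-fold with the sorafenib probe was 2 as reported, 0 with an offset of 50, 1 with median scaling, 0 without normalization and 1 with the mean of the kept probes. With sorafenib it was 1 as reported and 0 with the mean of the probes, and 1 member was lower without normalization. At the size of 25% higher or 20% lower, 8 members were higher and 1 lower with sorafenib, 6 higher and 1 lower with the probe, and 1 higher between the compounds. At 2-fold none was past the line with either compound (0 and 0). MRPL4 was at 0.51 and 0.24 with the mean of its probes. Detection limits and the authors' normalized table changed no count of members past 1.5-fold. No paired analysis was possible because each group has 1 array, and for the same reason no replicate could be left out. The cause of these shifts was not tested.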

Other observations

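The antisense RNA gene MRPL20-AS1, which was not counted among the proteins, read 7.04, 7.18 and 7.36 on the log2 scale (DMSO, sorafenib and sorafenib probe arrays). The probe of MRPL23-AS1 was above background on no array.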
